A study of Homo sapiens with 27 samples.

Results

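The 33 genes described here make up fatty acid and triglyceride synthesis. They run from the carriers and enzymes that supply acetyl-CoA in the cytosol, through palmitate synthesis, chain elongation and desaturation, to the assembly of triglyceride and its storage in lipid droplets. Their main transcriptional regulators are included. They were chosen by name for this pathway, not by a measured value. All 33 were on the arrays, with 49 probes, and all 33 passed the filter on dim spots, among 17419 genes tested on the platform that 8 compounds share and 14431 on that of the ninth.

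The messenger RNA came from HepG2, an established liver cancer line of human origin with many traits of hepatocytes, exposed for 48 h to a polycyclic aromatic hydrocarbon. The 9 hydrocarbons were benzo[a]pyrene (BaP), benzo[k]fluoranthene (BF), chrysene (CHR), its isomer benzo[a]anthracene (BA), dibenzo[a,h]anthracene (DBA), 3-methylcholanthrene (3MC), phenanthrene (PH), naphthalene (NP) and, on another platform, IND, which is indeno[1,2,3-c,d]pyrene. Each had 3 arrays, with treated RNA in the Cy5 dye and RNA from cells that received only DMSO, the solvent, in the Cy3 dye, so every compound has a DMSO control on its own arrays. Doses are not in the labels, so comparisons hold for the compounds as applied, and the labels leave unsaid whether a compound's arrays come from separate cultures, so p-values measure only how these arrays vary, possibly for technical reasons. No array had the dyes exchanged, and a dye bias of a probe cannot be told apart from its ratio to DMSO.

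Hepatocytes make fatty acids from citrate that leaves the mitochondria. Citrate is split to acetyl-CoA, acetyl-CoA carboxylases turn this into malonyl-CoA, and fatty acid synthase builds palmitate from it, which elongases and desaturases then remodel. Acyl-CoA synthetases activate fatty acids, and a chain of acyltransferases and phosphatases joins them to glycerol phosphate to give triglyceride. In liver the transcription factors SREBP-1c and ChREBP, products of SREBF1 and MLXIPL, switch on many of these genes in response to insulin and sugar.

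Values are log2 ratios of compound over DMSO, with means given ± SD over 3 arrays. A gene is said to have risen or fallen where limma's adjusted p was under 0.05 and the change was at least 1.5-fold. Signals were dimmest with DBA, 3MC and NP, with a median Cy5 intensity of 70 to 163 on those 9 arrays and 342 to 1535 on the other 18. CYP1A1, the classic target of the receptor for these compounds, rose with 8 of 9 compounds and was at 0.47 ± 0.05 (SD, n = 3) with NP. Array 1 of BA stood apart. Its correlation with the other BA arrays over all genes was 0.18 and 0.13, against 0.86 between those arrays, and its CYP1A1 ratio was 0.58, against 6.25 and 6.23. The CYP1A1 spot was saturated in Cy5 on 2 of the 3 BA arrays, where the ratio is a lower bound. Results for BA are therefore given with and without array 1. The 8 compounds of the shared platform also share one spread per gene, so for some members this array widened SEs and intervals of other compounds too. The SE of CHR minus BA was 0.39 for GPAT3, 0.27 for GPAM, 0.25 for FADS2 and 0.29 for SCD with it. Without it these SEs were 0.11, 0.06, 0.06 and 0.09, while that of AACS was 0.06 either way. Fits without it are given only for comparisons with BA. All 10 hepatocyte markers were above background in DMSO on every array (9 of 10 for NP). Of 8 markers of blood, connective tissue, muscle and fat cells, so were 8 with 3MC and NP, 6 with BaP and PH and 5 with BA. The number was 3 with DBA and CHR, 1 with BF and 4 of 4 tested with IND. Signal above background thus did not set expressed genes apart from absent ones on many of these arrays. Of the hepatocyte markers 10 fell with BF, 8 with IND, 7 with BaP and 5 with CHR, beside 20.3%, 13.1%, 10% and 12.2% of all genes. Pathway genes, too, fell most often with these 4 compounds. With DBA and NP 4 fell (beside 7.29% and 12.6% of all genes), with 3MC and PH 2 (beside 7.49% and 7.92%) and with BA 1 (beside 3.10%). In the other direction 2 rose with each of CHR, 3MC and NP (beside 11.8%, 3.67% and 6.73%) and 1 with each of DBA and PH (beside 3.07% and 10.6%). The part of these markers in the results was not tested. Among the 8 markers of other cells, 2 rose with CHR (25%, beside 11.8% of all genes), 1 with PH (12.5%, beside 10.6%) and 1 with BA (12.5%, beside 2.03%). No other call was made by limma, but only 4 of the 8 were tested with IND. In bulk RNA such as this, fewer cells of a kind and less RNA per cell cannot be told apart.

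The genes of the pathway fell most often with BF, IND and CHR. With BF, 24 of 33 fell (72.7%) and 3 rose (9.09%), where 20.3% of all genes fell and 16.1% rose. The members' median was -1.17, against -0.008 over all genes. With median centring in place of loess, 18 members fell and 4 rose with BF, and the share of higher genes among all genes called went from 44.2% to 56.9%. With IND, 22 members fell (66.7%) and 5 rose (15.2%), beside 13.1% and 10.4% of all genes, and their median was -0.85 beside 0.02. With CHR, 17 fell (51.5%) and 2 rose (6.06%), beside 12.2% and 11.8%, with a median of -0.70 beside 0.003. Under median centring 12 fell and 5 rose with CHR, and the share of higher genes among all calls went from 49% to 56%.

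With BaP, 17 members were called, where 25.1% of all genes were. Of the 33, 12 fell (36.4%, beside 10% of all genes) and 5 rose (15.2%, beside 15.1%), at a median of -0.33 beside 0.03. After median centring 11 fell and 8 rose with BaP, and the share of higher genes among all calls went from 60.1% to 72.7%. With DBA, 11 fell (33.3%, beside 7.29%) and 1 rose (3.03%, beside 3.07%). The median with DBA was near 0, at -0.03 beside 0.005, and after median centring only 5 members fell and 4 rose, the median was 0.003, and the share of higher genes among all calls went from 29.6% to 71.1%. With PH, 6 fell (18.2%, beside 7.92%) and 6 rose (18.2%, beside 10.6%), at a median of -0.11 beside 0.04.

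With 3MC the shares were near those of all genes. There 3 members fell (9.09%, beside 7.49%) and 2 rose (6.06%, beside 3.67%; 1 without array 2 of 3MC), and the median was -0.007 beside 0.01. With NP the members that fell were as frequent as among all genes, 4 of 33 (12.1%, beside 12.6%), while 6 rose (18.2%, beside 6.73%) at a median of 0.14 beside 0.02. The balance with NP turned under median centring, where 2 rose and 7 fell and the share of higher genes among all calls went from 34.8% to 17%. With BA, 9 were called, beside 5.13% of all genes. They were 7 that fell (21.2%, beside 3.10%) and 2 that rose (6.06%, beside 2.03%), at a median of -0.31 beside 0.009. Without BA array 1, 13 fell (39.4%, beside 5.96%) and 3 rose (9.09%, beside 4.53%), at a median of -0.45. Without BA array 3, 4 fell and 1 rose. After median centring of all 3 BA arrays 3 fell and 4 rose, and in a fit of BA alone by limma none of the 33 passed.

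**Figure D1:**
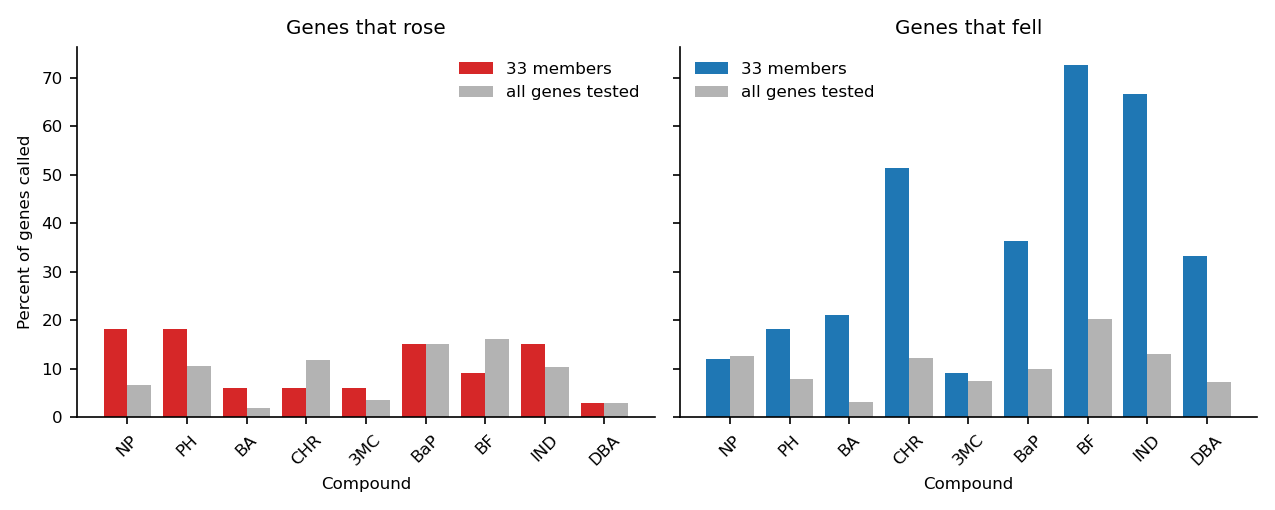
Percent of genes that rose (left panel) or fell (right panel) with each compound, among the 33 pathway genes (red or blue bars) and among all genes tested (grey bars). The share that fell is highest with BF, at 72.7% against 20.3% of all genes, followed by IND at 66.7% against 13.1%, and with 3MC both shares are close, at 9.09% and 7.49%.

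Over the 9 compounds, 19 of 33 members fell at least once and rose nowhere, 5 rose only, 7 did both, and 2 (THRSP and CIDEB) did neither. GPAM and PNPLA3 fell with 9 of 9 compounds. SCD, FADS2 and ELOVL6 fell with 7, and GPAT3 rose with 7. SREBF1 and ELOVL5 were below 0 on 27 of 27 arrays with the brightest probe of each but not with their second probes, whose means with NP were 0.54 and 0.44, and both passed the 1.5-fold threshold only with some compounds. The mean differed between the 8 compounds of the shared platform for 31 of 33 members by limma's F test at an adjusted p under 0.05, a share close to the 89.8% of all genes that did.

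**Figure D2:**
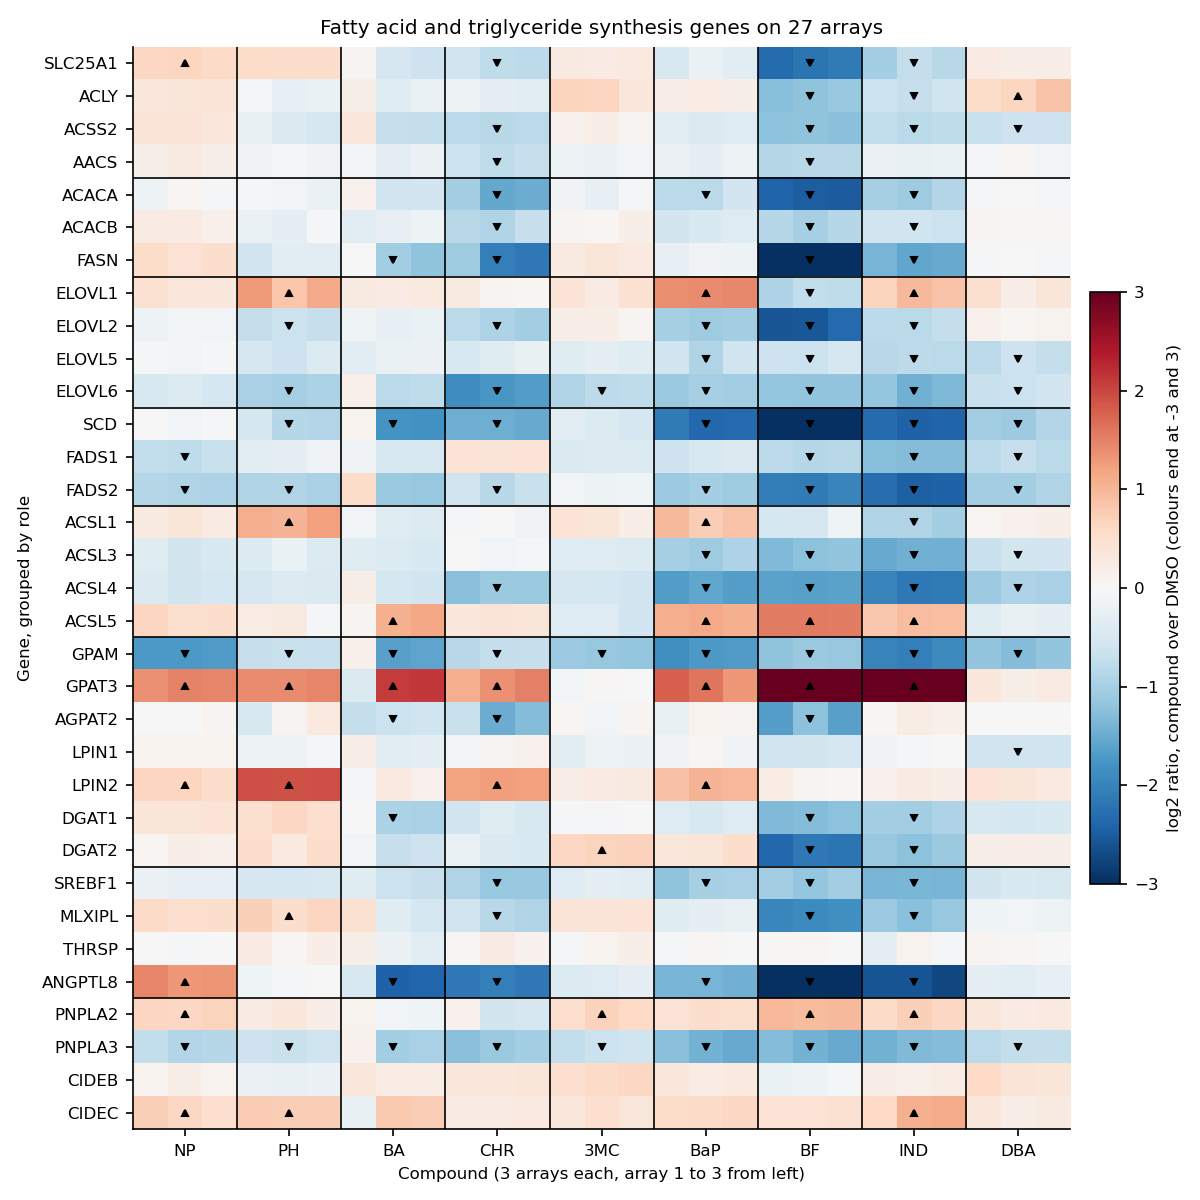
Log2 ratio of compound over DMSO for the 33 pathway genes (rows, by role) on 27 arrays (columns, 3 per compound), red above 0 and blue below, with colours ending at -3 and 3 and triangles for genes that rose (up) or fell (down) with that compound. BF and IND columns hold the most falls, 24 and 22 of 33, GPAT3 stands out above 0 at up to 4.87, and the first BA array differs from the other BA arrays.

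The start sites of some of the genes that moved most are shown next. Of the 33 members, 29 had a promoter in the RefSeq table of build GRCh38.p14. The 4 without one, FASN, DGAT1, DGAT2 and PNPLA3, are absent from the shares below. The table gives the bases before each start site, and 250 of these bases were read. Below are those of SCD and GPAM, which fell with nearly all compounds, ANGPTL8, which moved in both directions, and GPAT3, which rose. They are written 5′ to 3′ on the strand of the gene, and capitals mark each match to CCAAT or to GGGCGG (the GC box), on either strand, so that CCGCCC is the GC box of the other strand. SCD lies at chr10:100346983-100347232 on the plus strand, GPAM at chr10:112183766-112184015 on the minus strand, ANGPTL8 at chr19:11239369-11239618 on the plus strand and GPAT3 at chr4:83535857-83536106 on the plus strand.
SCD: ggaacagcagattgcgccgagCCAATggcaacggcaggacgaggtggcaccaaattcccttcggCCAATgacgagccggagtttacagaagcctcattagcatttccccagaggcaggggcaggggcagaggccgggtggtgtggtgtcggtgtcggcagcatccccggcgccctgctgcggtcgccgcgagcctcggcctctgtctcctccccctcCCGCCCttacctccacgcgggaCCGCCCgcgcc
GPAM: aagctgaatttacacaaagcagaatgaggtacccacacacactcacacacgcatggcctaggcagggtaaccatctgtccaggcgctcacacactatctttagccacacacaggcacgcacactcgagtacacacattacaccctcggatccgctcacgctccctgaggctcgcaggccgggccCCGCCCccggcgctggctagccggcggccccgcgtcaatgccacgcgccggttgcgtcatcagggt
ANGPTL8: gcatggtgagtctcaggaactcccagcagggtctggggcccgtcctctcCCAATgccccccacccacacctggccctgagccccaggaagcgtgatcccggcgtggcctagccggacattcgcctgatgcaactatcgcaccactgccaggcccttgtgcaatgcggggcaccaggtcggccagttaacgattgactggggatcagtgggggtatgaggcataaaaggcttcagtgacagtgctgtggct
GPAT3: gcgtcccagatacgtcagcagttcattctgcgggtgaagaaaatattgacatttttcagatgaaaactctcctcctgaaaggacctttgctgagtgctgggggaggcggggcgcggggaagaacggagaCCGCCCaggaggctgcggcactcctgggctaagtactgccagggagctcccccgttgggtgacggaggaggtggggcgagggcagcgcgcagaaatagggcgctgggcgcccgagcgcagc
The letters TCACNCCAC, a sterol regulatory element bound by SREBP proteins, were in 3 of 46 promoters of the members (6.52%: ACSL1, CIDEC and PNPLA2) and in 0.883% of 35116 promoters in the table. The letters CACGTG, an E-box, were in 4.35% and 6.34%. The letters TNGCGTG, which the dioxin receptor binds, were in 4.35% and 4.52%, the members' share coming from ACACA alone. CCAAT was in 32.6% and 32%, and GGGCGG in 67.4% and 42.6%. All were searched on both strands, and 2 of 122 matches in the members' promoters shared bases with a match to another of the motifs. A match describes these windows only, and none of the promoters printed holds the first 3 motifs.

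Of the 4 members that supply acetyl-CoA (SLC25A1, ACLY, ACSS2 and AACS), 4 fell with BF and 3 with CHR and with IND. Elsewhere ACSS2 fell and ACLY rose with DBA, and SLC25A1 rose with NP. SLC25A1 carries citrate out of the mitochondria. Its log2 ratios were -2.30, -2.20 and -2.11 with BF, -1.01, -0.72 and -0.83 with IND and -0.60, -0.75 and -0.78 with CHR. They were 0.62, 0.64 and 0.58 with NP, 0.54, 0.52 and 0.52 with PH, 0.28, 0.25 and 0.30 with 3MC and 0.24, 0.20 and 0.21 with DBA. The arrays of BF, IND and CHR thus lay on the other side of 0 from those of NP, PH, 3MC and DBA, without overlap. The means were -2.20 ± 0.09 with BF (adjusted p = 6.90e-16) and 0.62 ± 0.03 with NP (adjusted p = 1.19e-06). Under median centring the values with NP (0.38), CHR (-0.43) and IND (-0.56) were no longer called.

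ACSS2, which makes acetyl-CoA from acetate, was at -1.23, -1.22 and -1.26 with BF, -0.80, -0.84 and -0.80 with CHR, -0.74, -0.80 and -0.76 with IND and -0.66, -0.62 and -0.62 with DBA. It fell in all of these, by means of -1.24 ± 0.02, -0.81 ± 0.02, -0.77 ± 0.03 and -0.63 ± 0.02, the last 3 not called under median centring. A second ACSS2 probe read -1.55 with BF, -1.48 with CHR, -0.83 with IND and -0.15 with DBA. With the mean of both probes the fall with DBA (-0.39) was not called. With BA the ACSS2 probe used read -0.36 ± 0.58, and without array 1 of BA ACSS2 fell, at -0.69. ACLY, the enzyme that splits citrate, fell with BF (-1.21 ± 0.07) and IND (-0.65 ± 0.05) and rose with DBA (0.68 ± 0.15), though both falls were lost under median centring, at -0.51 and -0.33. AACS, which makes acetoacetyl-CoA from acetoacetate for lipid synthesis, fell with BF (-0.84 ± 0.01, lost under median centring at -0.55) and CHR (-0.70 ± 0.06).

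The messenger RNA of all 3 members grouped under malonyl-CoA and palmitate synthesis fell with BF, CHR and IND, for ACACA on the probe used. FASN, the multi-domain enzyme that builds palmitate, moved most. Its log2 ratios were -4.55, -4.44 and -4.32 with BF, -1.06, -2.06 and -2.15 with CHR and -1.40, -1.56 and -1.50 with IND. With BA they were 0.01, -1.03 and -1.21, with PH -0.58, -0.33 and -0.35 and with BaP -0.25, -0.12 and -0.16. With NP they were 0.55, 0.45 and 0.52, with 3MC 0.27, 0.36 and 0.30 and with DBA -0.03, 0.0014 and -0.03. The FASN probe was dim with DBA, NP and 3MC, at a mean log2 intensity of 5.97, 6.96 and 7.13, which draws ratios toward 0. That intensity was 11.51 with BF, 13.85 with IND, 13.98 with CHR and 14.87 with BA. In their ratios all BF arrays lay below all others, and those of CHR overlapped both those of IND and those of BA. NP and 3MC arrays were all above 0 without reaching the threshold. The mean with BF was -4.43 ± 0.11 (adjusted p = 8.74e-16), with CHR -1.76 ± 0.61 (adjusted p = 7.39e-09) and with IND -1.49 ± 0.08 (adjusted p = 4.25e-07). The fall with BA was -0.74 ± 0.66, -1.12 without array 1 and -0.32 under median centring, where it was not called, as it was not without array 3 (-0.51).

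ACACA, the cytosolic acetyl-CoA carboxylase, was at -2.41, -2.47 and -2.50 with BF, -1.02, -1.55 and -1.48 with CHR, -1.0, -1.07 and -0.88 with IND and -0.81, -0.80 and -0.58 with BaP. It fell with these 4 compounds, at -2.46 ± 0.05, -1.35 ± 0.29, -0.98 ± 0.10 and -0.73 ± 0.13, and no array of theirs overlapped those of DBA, 3MC and NP, whose means were -0.03, -0.13 and -0.05. The ACACA probe was dim with DBA, 3MC and NP, which draws ratios toward 0. Its mean log2 intensity was 5.97, 6.59 and 6.83 there, against 9.96 to 11.22 with the 4 compounds in which it fell. A second ACACA probe went the other way with BF, at 1.12 against -2.46, the one case of 112 on the shared platform in which probes of a member passed 1.5-fold in opposite directions. With the mean of both probes ACACA was not called with BaP (-0.35) or IND (-0.32). ACACB, the carboxylase at the mitochondrial surface whose malonyl-CoA restrains fatty acid oxidation, fell with BF (-0.90 ± 0.08), CHR (-0.81 ± 0.10) and IND (-0.61 ± 0.03). The ACACB probe was dim too with DBA (5.97), 3MC (6.46), NP (6.68), BaP (7.38) and PH (7.42).

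Of the 4 elongases, ELOVL6 fell most widely and ELOVL1 moved the other way with several compounds. ELOVL6 lengthens palmitate to stearate. It was at -1.86, -1.75 and -1.68 with CHR, -1.15, -1.44 and -1.36 with IND, -1.15, -1.17 and -1.18 with BF and -1.12, -1.0 and -1.05 with BaP. It was at -0.97, -1.0 and -0.95 with PH, -0.90, -0.77 and -0.76 with 3MC, -0.68, -0.65 and -0.56 with DBA, -0.48, -0.40 and -0.52 with NP and 0.16, -0.80 and -0.75 with BA. Only array 1 of BA was above 0 of the 27. The largest mean fall was with CHR, at -1.76 ± 0.09 (adjusted p = 4.98e-12), and the mean with BA was -0.46 ± 0.54, or -0.78 without array 1, where it was called.

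ELOVL2, which elongates polyunsaturated fatty acids, fell with BF (-2.48 ± 0.13), BaP (-1.03 ± 0.04), CHR (-0.93 ± 0.11), IND (-0.77 ± 0.04) and PH (-0.69 ± 0.03). Its probe was dim with DBA, 3MC and NP, at a mean log2 intensity of 6.33, 7.16 and 7.12, against 11.32 with BF. ELOVL5, another polyunsaturated elongase, fell with IND (-0.81 ± 0.02), BaP (-0.70 ± 0.18), DBA (-0.70 ± 0.08) and BF (-0.59 ± 0.07). Of these ELOVL5 falls, the last 3 were not called under median centring, that with BF was not called without array 1 (-0.58) or 2 (-0.56) of BF, and a second probe read -2.94 with BF and -0.01 with DBA. ELOVL1, which makes very long saturated chains, rose with BaP (1.42 ± 0.03, adjusted p = 8.24e-14), PH (1.09 ± 0.23) and IND (0.83 ± 0.16). With BF ELOVL1 fell, at -0.81 ± 0.10, and was at -0.23 under median centring and no longer called.

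All 3 desaturases fell with BF, IND and DBA, and 2 of 3 with BaP, CHR, PH and NP. With the mean of all probes of a gene none of the 3 was called with DBA (SCD -0.37, FADS1 -0.35 and FADS2 -0.47) or with NP (FADS2 -0.47), and under median centring FADS2 with CHR (-0.39) and FADS1 with BF and DBA were not called. SCD, which puts the first double bond into stearate and palmitate, was at -3.29, -3.29 and -3.21 with BF, -2.31, -2.42 and -2.40 with IND, -2.13, -2.35 and -2.33 with BaP and -1.46, -1.47 and -1.50 with CHR. It was at 0.11, -1.78 and -1.83 with BA, -1.05, -1.08 and -0.88 with DBA and -0.54, -0.85 and -0.88 with PH. With 3MC it was at -0.33, -0.42 and -0.51 and with NP at 0.01, -0.07 and -0.03. Every array was below 0 with the 7 compounds in which it fell except array 1 of BA, and the values with NP lay on both sides of 0. The fall was -3.26 ± 0.05 with BF (adjusted p = 4.93e-12), -2.38 ± 0.06 with IND, -2.27 ± 0.12 with BaP (adjusted p = 3.11e-09) and -1.48 ± 0.02 with CHR. With BA it was -1.17 ± 1.11, or -1.80 without array 1. The fall with DBA was -1.0 ± 0.11 on the probe used, but 2 other SCD probes read -0.10 and -0.01 there, and under median centring the value was -0.38 and not called.

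FADS2 and FADS1 desaturate polyunsaturated fatty acids and lie next to each other in the genome. FADS2 was at -2.27, -2.44 and -2.42 with IND, -2.06, -2.10 and -1.98 with BF, -1.09, -1.02 and -1.07 with BaP and -1.03, -1.02 and -0.91 with DBA. It was at -0.90, -0.91 and -0.97 with PH, -0.87, -0.89 and -0.93 with NP, -0.60, -0.83 and -0.66 with CHR, 0.54, -1.12 and -1.14 with BA and -0.07, -0.16 and -0.13 with 3MC. IND and BF arrays were lowest and did not overlap the rest, and array 1 of BA was the only array above 0. The means were -2.38 ± 0.09 with IND (adjusted p = 1.15e-07) and -2.05 ± 0.06 with BF (adjusted p = 9.99e-10), and with BA -0.58 ± 0.97, or -1.13 without array 1. A second FADS2 probe was near 0 with NP (-0.05) and DBA (0.05), and lower than the first with BF (-4.13). FADS1 fell with IND (-1.29 ± 0.01), BF (-0.82 ± 0.03, lost under median centring at -0.09), DBA (-0.77 ± 0.07, lost there too at -0.32) and NP (-0.72 ± 0.04, lost with the mean of its probes at -0.09), and its second probe read 0.54 with NP and 0.06 with DBA.

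The acyl-CoA synthetases, which activate fatty acids for further use, moved in both directions. ACSL4, which prefers arachidonate, fell with 5 compounds. It was at -2.02, -2.16 and -2.12 with IND, -1.69, -1.57 and -1.65 with BaP, -1.61, -1.64 and -1.60 with BF, -1.25, -1.11 and -1.11 with CHR and -1.09, -0.94 and -0.96 with DBA. With the compounds in which ACSL4 was not called it was at -0.50, -0.52 and -0.58 with 3MC, -0.44, -0.56 and -0.54 with NP, -0.51, -0.42 and -0.44 with PH and 0.18, -0.54 and -0.57 with BA. The arrays of the first 5 compounds all lay below those of 3MC, NP and PH, and their means ran from -2.10 ± 0.07 with IND (adjusted p = 1.41e-07) to -1.0 ± 0.08 with DBA (adjusted p = 3.97e-09). ACSL3, found on lipid droplets, fell with IND (-1.47 ± 0.03), BF (-1.25 ± 0.07), BaP (-0.99 ± 0.06) and DBA (-0.60 ± 0.07, lost under median centring at -0.21 and without array 1 of DBA at -0.56). A second ACSL3 probe read lower than the first with NP (-1.80 against -0.46), 3MC (-1.45 against -0.40), DBA (-1.69 against -0.60) and CHR (-1.02 against -0.03).

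ACSL5, a synthetase of mitochondria and endoplasmic reticulum, rose with 3 of the compounds with which ACSL4 fell and with BA. It rose with BF (1.54 ± 0.02), BaP (1.09 ± 0.04), IND (0.88 ± 0.06) and BA (0.77 ± 0.60, or 1.11 without array 1 and, not called, 0.57 without array 3). ACSL1, a main synthetase of liver, rose with PH (1.11 ± 0.11) and BaP (0.86 ± 0.12) and fell with IND (-0.95 ± 0.07).

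The first step of glycerolipid assembly held opposite changes, GPAM falling with 9 of 9 compounds and GPAT3 rising with 7. GPAM and GPAT3 both join the first fatty acid to glycerol phosphate, GPAM at the mitochondrion and GPAT3 at the endoplasmic reticulum. GPAM was at -2.0, -2.04 and -1.91 with IND, -1.84, -1.73 and -1.71 with BaP, -1.73, -1.73 and -1.71 with NP, -1.19, -1.31 and -1.19 with DBA and -1.21, -1.11 and -1.14 with BF. It was at -1.09, -1.13 and -1.16 with 3MC, 0.16, -1.63 and -1.58 with BA, -0.83, -0.72 and -0.69 with CHR and -0.70, -0.67 and -0.67 with PH. Array 1 of BA was the only array of 27 above 0. The means ran from -1.98 ± 0.07 with IND (adjusted p = 1.50e-07) to -0.68 ± 0.02 with PH (adjusted p = 0.00343), with BA at -1.01 ± 1.02, or -1.60 without array 1. Under median centring the values with CHR (-0.43) and PH (-0.56) were not called. A second GPAM probe read lower than the first with BF (-3.14), BaP (-2.21) and CHR (-1.91) and nearer 0 with NP (-0.39), 3MC (-0.34) and DBA (-0.05).

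GPAT3 was at 4.87, 4.86 and 4.77 with BF, 4.12, 4.02 and 4.02 with IND, 1.79, 1.59 and 1.30 with BaP, 1.36, 1.48 and 1.47 with NP and 1.43, 1.41 and 1.46 with PH. It was at 1.08, 1.36 and 1.51 with CHR, -0.43, 2.09 and 2.11 with BA, 0.33, 0.17 and 0.25 with DBA and -0.08, 0.04 and 0.01 with 3MC. The arrays of BF and IND lay far above all others, and those of DBA and 3MC did not reach the threshold. GPAT3 rose 28.5-fold with BF (4.83 ± 0.06, adjusted p = 6.76e-13) and 16.6-fold with IND (4.05 ± 0.06, adjusted p = 6.21e-08). With BA it was 1.26 ± 1.46, or 2.10 without array 1.

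The later steps were mixed. LPIN2, a phosphatase that makes diacylglycerol, rose with PH (1.92 ± 0.02), CHR (1.23 ± 0.04), BaP (0.97 ± 0.08) and NP (0.61 ± 0.07). A second LPIN2 probe read 1.55 with PH but -0.12 with CHR, -0.01 with BaP and -3.65 with BF, where the first read 0.13. With the mean of both probes the rises with CHR (0.56), BaP (0.48) and NP (0.39) were not called, nor was that with NP under median centring (0.50). LPIN1, another lipin, fell with DBA alone among 9 compounds (-0.60 ± 0.01, lost under median centring at -0.31). DGAT1 and DGAT2 catalyse the last step to triglyceride. DGAT1 fell with BF (-1.29 ± 0.04), IND (-1.0 ± 0.06) and BA (-0.64 ± 0.56, or -0.96 without array 1 and, not called, -0.48 and -0.47 without arrays 2 and 3 or -0.45 under median centring). DGAT2 fell with BF (-2.23 ± 0.10) and IND (-1.17 ± 0.06) and rose with 3MC (0.66 ± 0.03), and without array 1 of BA it fell there too (-0.66). AGPAT2, the acyltransferase that adds the second fatty acid, fell with BF (-1.50 ± 0.24), CHR (-1.16 ± 0.43) and BA (-0.65 ± 0.06, not called under median centring at -0.53 or with plain background subtraction at -0.66), but its probe stood above background in both channels on all 3 arrays only with BA and IND, and on 1 of 3 with BF and CHR.

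Among the regulators, SREBF1, which encodes SREBP-1, was below 0 on 27 of 27 arrays with the probe used and fell with 4 compounds. A second, dimmer probe had means above 0 with NP (0.54), 3MC (0.28), PH (0.12), BaP (0.08) and DBA (0.05). The means of the probe used were -1.40 ± 0.01 with IND, -1.08 ± 0.07 with BF, -1.06 ± 0.14 with CHR and -1.06 ± 0.13 with BaP, and with the other compounds they lay between -0.56 with BA and -0.22 with NP. The value with BF was -0.57 and not called under median centring, and that with BaP was -0.49 and not called with the mean of its probes. MLXIPL, which encodes ChREBP, fell with BF (-1.91 ± 0.07), IND (-1.16 ± 0.08) and CHR (-0.77 ± 0.16) and rose with PH (0.63 ± 0.10). The MLXIPL values with CHR and PH were not called under median centring, and one of its other probes read 1.41 with 3MC and 1.14 with DBA, where the probe used read 0.40 and -0.12. THRSP, a lipogenic regulator in liver, stayed between -0.10 and 0.16 in its means and was called with no compound. Its probe was dim, with a mean log2 intensity from 6.03 with DBA to 8.11 with PH. It stood above background on only 1 of 3 arrays in Cy3 with PH and in Cy5 with BF. A change of THRSP could thus have been missed.

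ANGPTL8, a secreted protein that liver makes after feeding and that restrains lipoprotein lipase in muscle, had the widest span of the regulators. It was at -4.32, -4.11 and -4.09 with BF, -2.59, -2.58 and -2.72 with IND, -2.15, -2.05 and -2.13 with CHR, -0.47, -2.42 and -2.39 with BA and -1.39, -1.40 and -1.45 with BaP. It was at 1.46, 1.29 and 1.31 with NP, -0.13, -0.05 and 0.02 with PH, -0.30, -0.32 and -0.24 with DBA and -0.40, -0.39 and -0.30 with 3MC. All NP arrays were above 1 and all BF arrays below -3. ANGPTL8 fell 18.1-fold with BF (-4.18 ± 0.13, adjusted p = 7.24e-14) and rose 2.56-fold with NP (1.35 ± 0.09, adjusted p = 7.09e-06). With BA it was -1.76 ± 1.12, or -2.40 without array 1.

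Of the 4 lipid droplet genes, PNPLA3 fell with 9 compounds, PNPLA2 rose with 4, CIDEC rose with 3 and CIDEB was not called. PNPLA3, a lipase and acyltransferase of hepatocyte droplets, was at -1.29, -1.42 and -1.50 with BF, -1.26, -1.43 and -1.50 with BaP, -1.41, -1.33 and -1.31 with IND, -1.26, -1.12 and -1.01 with CHR and -0.74, -0.89 and -0.86 with NP. It was at -0.82, -0.70 and -0.72 with DBA, -0.73, -0.64 and -0.59 with 3MC, -0.62, -0.68 and -0.60 with PH and 0.12, -1.01 and -0.97 with BA. Again array 1 of BA was the only array above 0. The means ran from -1.41 ± 0.11 with BF (adjusted p = 1.62e-09) to -0.62 ± 0.64 with BA (adjusted p = 5.01e-04), the latter -0.99 without array 1 and -0.50 and not called under median centring. Without array 2 or 3 of BA it was -0.42 and -0.44 and not called.

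PNPLA2, the lipase that starts triglyceride breakdown, rose with BF (0.98 ± 0.01), NP (0.65 ± 0.01), IND (0.64 ± 0.07) and 3MC (0.59 ± 0.10). The rise with NP was lost under median centring, at 0.42, and that with 3MC without array 2, at 0.54. CIDEC, which helps droplets fuse, rose with IND (0.93 ± 0.28), PH (0.75 ± 0.01) and NP (0.61 ± 0.10, lost under median centring at 0.48 and without array 1 of NP at 0.57). CIDEB, a relative of CIDEC that liver uses to load lipoproteins, was called with no compound, with means from -0.19 to 0.56.

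**Figure D3:**
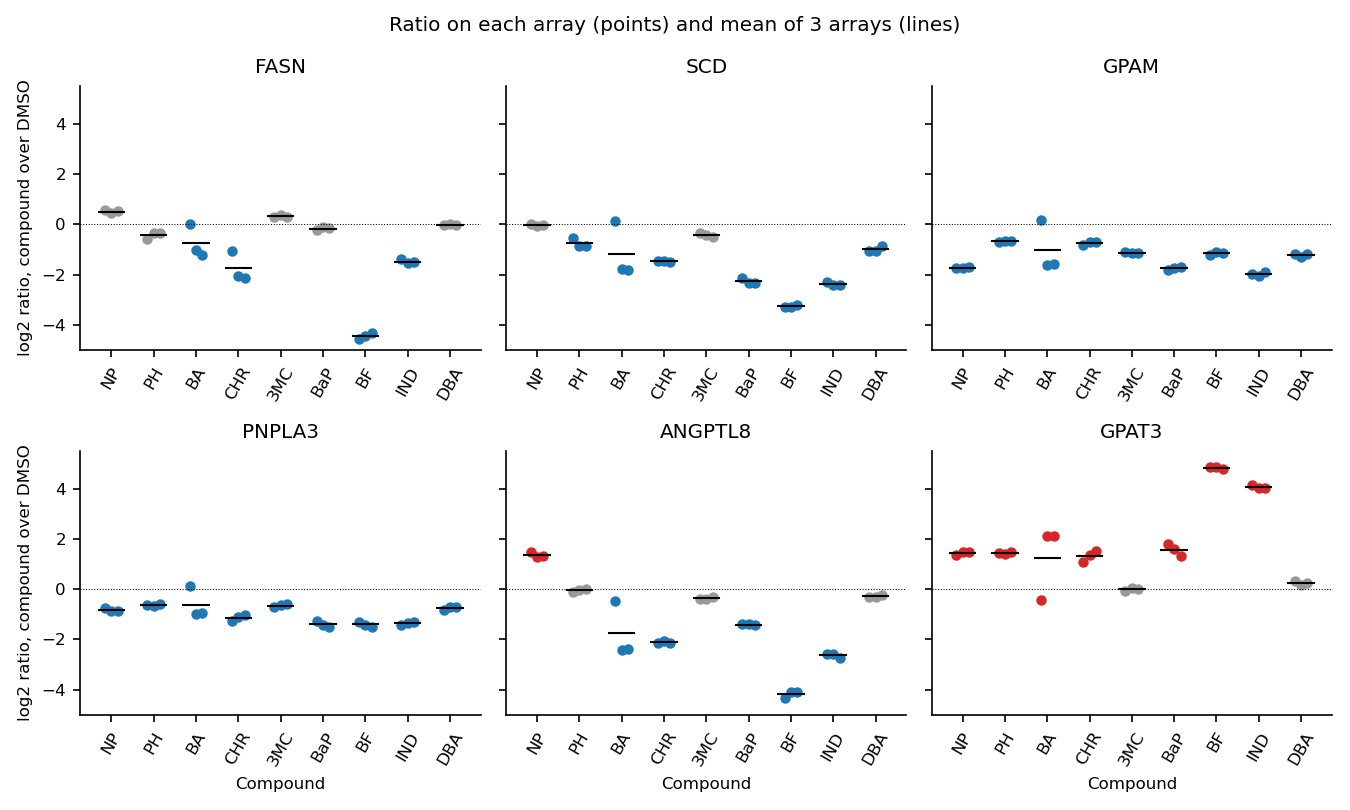
Log2 ratio over DMSO of FASN, SCD, GPAM, PNPLA3, ANGPTL8 and GPAT3 on each array (points) with the mean of 3 arrays (black lines) for 9 compounds, coloured red where the gene rose, blue where it fell and grey where neither. GPAM and PNPLA3 are blue throughout, FASN reaches -4.43 with BF and is grey with NP at 0.51, where its probe was dim, and GPAT3 reaches 4.83 with BF.

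Compounds were then set against each other in 8 pairs that share a file layout, each adjusted over all genes tested. BaP and BF are isomers, BF being of the fluoranthene type, and they differed in 18 of 33 members (beside 35.3% of all genes). With BaP, 17 members were higher than with BF (51.5%, beside 21.8% of all genes) and 1 was lower (3.03%, beside 13.5%). The 17 include AGPAT2 (1.49 ± 0.17), whose probe with BaP stood above background on 0 of 3 arrays in Cy5 and 1 in Cy3. With BF it did so on 1 of 3 in either channel. FASN differed most, by 4.26 ± 0.24 (SE, adjusted p = 1.17e-12), followed by ANGPTL8 at 2.76 ± 0.29, DGAT2 at 2.65 ± 0.12, ELOVL1 at 2.23 ± 0.10 and SLC25A1 at 1.88 ± 0.12. The DMSO levels of these 2 compounds were unlike for several of these genes. The median log2 Cy3 signal minus the array median was 0.64 for FASN with BaP and PH and 4.8 with CHR, BA and BF. In the same sets it was 1.04 and 4.35 for ANGPTL8, 1.9 and 4.3 for SLC25A1, 2.99 and 3.52 for DGAT2 and 3.656 and 3.655 for ELOVL1. The part of these levels in the differences was not tested. GPAT3 was the member lower with BaP, by -3.27 ± 0.39 (adjusted p = 1.76e-07). For 8 members called with both isomers no difference was called. Among them the 95% interval of the difference was -1.16 to -0.05 for GPAM, -0.27 to 0.24 for ACSL4, -0.15 to 0.20 for SREBF1, -0.37 to 0.38 for PNPLA3 and -0.20 to 0.43 for ELOVL6. It was 0.12 to 0.39 for ACSL3 and -0.81 to -0.09 for ACSL5. These 2 had an adjusted p of 0.00191 and 0.0258 by limma and missed only the 1.5-fold threshold. GPAM, at -0.60 ± 0.27 (SE), passed that threshold and missed the other, at an adjusted p of 0.0547 by limma. Its SDs were 0.07 with BaP and 0.05 with BF, against 1.02 with BA. The SE rests on the shared spread, which array 1 of BA widened. For ELOVL5 it was -0.28 to 0.06, but a second ELOVL5 probe read -1.10 with BaP and -2.94 with BF. Under median centring 14 were higher and 4 lower with BaP, and with the pair fitted alone 2 were lower. Besides GPAT3 only GPAM was lower by at least 1.5-fold in the reported means.

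CHR and BA are isomers that differ in how their rings are fused, and 8 of 33 members differed between them (beside 18.6% of all genes). With CHR, 6 members were lower (18.2%, beside 9.30%) and 2 higher (6.06%, beside 9.33%). Without BA array 1, 8 were lower (24.2%, beside 8.56%) and 3 higher (9.09%, beside 9.19%). Under median centring 10 were lower, and with the mean of all probes none was called higher by limma. ELOVL6 was lower with CHR by -1.30 ± 0.15, or -0.99 without that array, FASN by -1.01 ± 0.24 or -0.63, and ACACA by -1.0 ± 0.15 or -0.76. The FASN difference was not called with the pair fitted alone. LPIN2 was higher with CHR by 1.10 ± 0.07, or 1.02, but not called with the mean of its probes (0.48). MLXIPL, lower with CHR by -0.62 ± 0.15, was no longer called without array 1 of BA, at -0.32, or array 3 of CHR, at -0.56. GPAM was higher with CHR only without that array (0.86, against 0.27 ± 0.27 with it), and GPAT3 lower only then (-0.78, against 0.06 ± 0.39). For SCD no difference was called either way, with a 95% interval of -0.93 to 0.30 over all arrays. Without BA array 1 the SCD difference changed sign, to 0.33 (adjusted p = 0.00373, 95% interval 0.14 to 0.51), under the 1.5-fold threshold.

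BF was then set against CHR and BA. Against CHR, 16 members were lower with BF (48.5%, beside 17.1%) and 4 higher (12.1%, beside 11.2%), 20 in all beside 28.3% of all genes, and against BA, 20 were lower (60.6%, beside 18.2%) and 3 higher (9.09%, beside 13.2%). Those lower than with BA include AGPAT2 (-0.85 ± 0.17), whose probe with BF stood above background on 1 of 3 arrays in either channel. FASN was lower with BF than with CHR by -2.68 ± 0.24 and ANGPTL8 by -2.06 ± 0.29. GPAT3 was higher with BF by 3.52 ± 0.39 against CHR and 3.58 ± 0.39 against BA, or 2.73 without BA array 1. Without that array 16 members were lower than with BA (48.5%, beside 17.2%) and 2 higher (6.06%, beside 11.7%), and the differences in ACSS2, ELOVL6, DGAT1, PNPLA3 and ACSL5 were no longer called. The 4 members higher with BF than with CHR were GPAT3, PNPLA2 (1.29 ± 0.12), ACSL5 (1.19 ± 0.17) and ELOVL6 (0.59 ± 0.15). The ELOVL6 call was lost with array weights (0.56) and without array 1 of CHR (0.54) or array 1 of BF (0.58).

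Between BaP and PH, which has fewer rings, 11 members were lower with BaP (33.3%, beside 9.80%) and 1 was higher (3.03%, beside 12%). The largest differences were in SCD (-1.51 ± 0.29), ANGPTL8 (-1.36 ± 0.29), ACSL4 (-1.18 ± 0.12) and GPAM (-1.07 ± 0.27), and ACSL5 was the member higher with BaP (0.95 ± 0.17). For GPAT3 no difference was called, with a 95% interval of -0.68 to 0.94. Under median centring 9 were lower and 3 higher.

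DBA, 3MC and NP were also compared. Between DBA and 3MC 2 members were called by limma, both lower with DBA (6.06%, beside 0.913% lower and 1.31% higher of all genes), and 0 of 33 had a 95% interval wholly above 0. They were FADS2 (-0.87 ± 0.25) and ACSS2 (-0.77 ± 0.16), neither called under median centring or with the mean of all probes (-0.41 and -0.34). FADS2 was not called without any 1 of 5 of the 6 arrays, though its values there stayed between -0.89 and -0.85. Its SDs were 0.07 with DBA, 0.04 with 3MC and 0.03 with NP, against 0.97 with BA. The SE rests on the shared spread, which array 1 of BA widened. Against NP, DBA was lower in 9 members (27.3%, beside 4.52%), led by ANGPTL8 (-1.64 ± 0.29), GPAT3 (-1.19 ± 0.39) and ACSS2 (-1.01 ± 0.16), and no member was called higher by limma (beside 6.83%), though 3 had a 95% interval wholly above 0. The GPAT3 difference was not called without array 2 of DBA (-1.15), its SE too resting on a spread that array 1 of BA widened. The ACSS2 difference was not called with the mean of its probes (-0.37). A second ACSS2 probe read -0.15 with DBA, -0.23 with 3MC and -0.42 with NP. Of these 9 only ANGPTL8 was still called under median centring, where 3 members were higher with DBA. Between 3MC and NP 4 members differed, beside 8.20% of all genes. With 3MC 3 were lower (9.09%, beside 3.14%), namely ANGPTL8 (-1.72 ± 0.29), GPAT3 (-1.45 ± 0.39) and ACSL5 (-1.0 ± 0.17). FADS2 was higher with 3MC than with NP (0.78 ± 0.25, 1 of 33 or 3.03%, beside 5.06%). This call was lost without any 1 of 5 of the 6 arrays, at values of 0.75 to 0.79 and with the same widened spread. For FASN, whose probe was dim with both, no difference was called between 3MC and NP, with a 95% interval of -0.69 to 0.30.

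**Figure D4:**
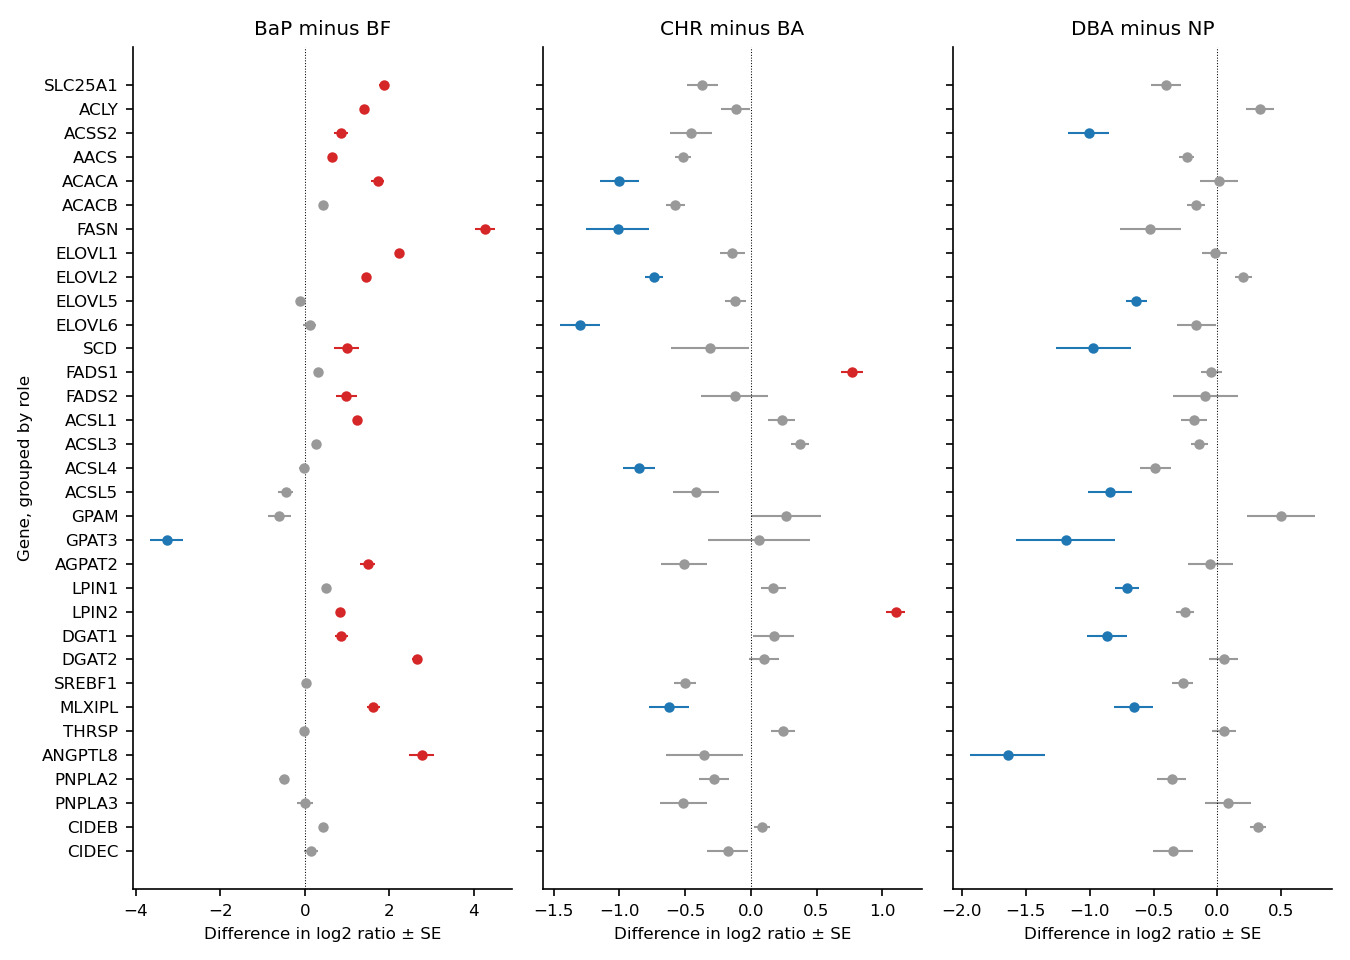
Difference in log2 ratio (± SE of the limma contrast) between BaP and BF, CHR and BA, and DBA and NP for each of the 33 pathway genes, red where the first compound was higher, blue where it was lower and grey where no difference was called. Each panel has its own axis range. The BaP and BF panel is mostly red, led by FASN, with GPAT3 as the one blue gene, and the DBA and NP panel has only blue calls.

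The DMSO channel shows the level from which each ratio starts, given here as the log2 Cy3 signal minus the median of its array. FASN ran from 0.32 to 0.93 on the arrays of BaP and PH, from 4.37 to 5.33 on those of CHR, BA and BF, from -1.22 to -0.47 on those of DBA, 3MC and NP and from 5.39 to 5.81 on those of IND. The compounds with which FASN fell were those whose DMSO arrays were high in it, without overlap with the rest. SLC25A1 was lowest on the arrays of BaP and PH, and those of IND overlapped those of CHR, BA and BF, at 1.41 to 2.10, 4.04 to 5.09, 2.74 to 3.43 and 4.66 to 5.24 in the same sets. ANGPTL8 ran over 0.38 to 1.55, 3.77 to 5.14, 2.53 to 3.19 and 3.4 to 3.98, while SCD was high in every set, at 5.04 to 6.12, 4.12 to 5.66, 5.23 to 6.01 and 5.20 to 5.54. Such unequal DMSO levels were common on these arrays. The DMSO mean spanned at least 4-fold over 8 compounds in 20 of 33 members (60.6%), beside 57.2% of all genes, and the part of the starting level in the ratios was not tested.

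**Figure D5:**
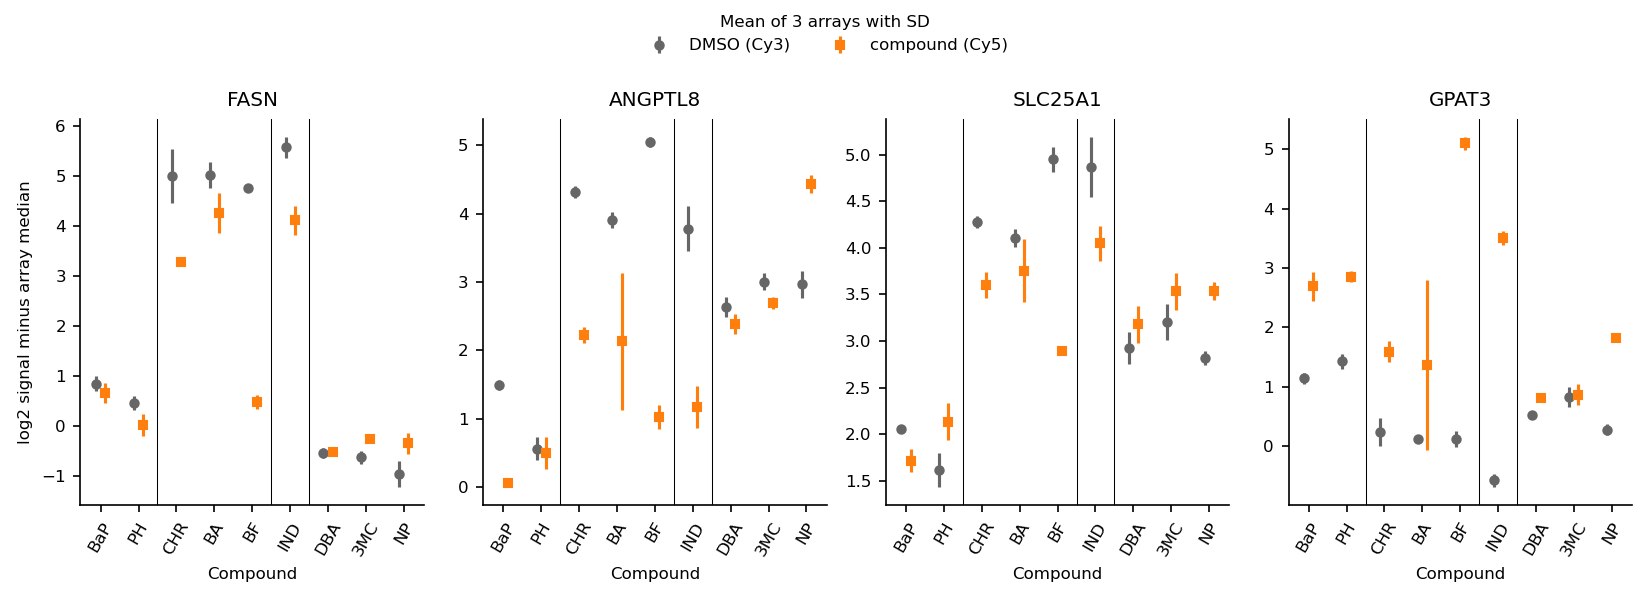
Level of FASN, ANGPTL8, SLC25A1 and GPAT3 in the DMSO channel (grey circles) and the compound channel (orange squares), as log2 signal minus the array median, mean ± SD of 3 arrays per compound. FASN in DMSO runs from 0.32 to 0.93 with BaP and PH and from 4.37 to 5.33 with CHR, BA and BF, and its treated level with BF (0.47) lies in the former range.

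Of 61 further genes of lipid synthesis and handling, 60 were tested on the shared platform and 55 with IND. With BF 17 fell (28.3%, beside 20.3% of all genes) and 5 rose (8.33%, beside 16.1%), and under median centring 12 rose. With NP 13 fell (21.7%, beside 12.6%) and 9 rose (15%, beside 6.73%), the latter 5 under median centring. With CHR 9 fell (15%, beside 12.2%) and 5 rose (8.33%, beside 11.8%), the latter 8 under median centring. With BaP 6 fell (10%, beside 10%) and 10 rose (16.7%, beside 15.1%), the latter 16 under median centring. With PH 8 fell (13.3%, beside 7.92%) and 11 rose (18.3%, beside 10.6%), and with IND 6 fell (10.9%, beside 13.1%) and 8 rose (14.5%, beside 10.4%). With 3MC 7 fell (11.7%, beside 7.49%) and 4 rose (6.67%, beside 3.67%). With DBA 7 fell (11.7%, beside 7.29%) and 3 rose (5%, beside 3.07%), which became 2 and 7 under median centring. With BA 2 fell (3.33%, beside 3.10%) and none was called higher by limma, where median centring gave 4 that rose. Their median was -0.23 with BF and between -0.04 and 0.06 with the others. FABP1, the fatty acid binding protein of liver, fell with 8 compounds, most with BF at -2.63. MTTP, which loads triglyceride onto lipoproteins, also fell with 8, reaching -2.52 with BF. IDH1, a source of cytosolic NADPH, fell with 5 (lowest -1.42 with BaP), HACD2, which acts in chain elongation, with 5 (lowest -0.96 with NP) and DBI, which binds acyl-CoA, with 4 (lowest -1.26 with IND).

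Others of these genes rose. PLIN3, a droplet coat protein, rose with 7 compounds, most with BaP at 1.07. FADS3, a desaturase relative next to FADS1 and FADS2, rose with 6, at 2.61 with BaP and 2.26 with CHR. ABHD5, the activator of PNPLA2, rose with 6, most with BF at 1.51, where PNPLA2 rose too. GPAT4, a further glycerol phosphate acyltransferase, rose with 4 and fell with BF at -2.25. SCAP, the escort of SREBP proteins, rose with 4, most with BaP at 1.07.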

How the data were processed

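The deposited scanner output of the 27 arrays gives the intensity of every spot and of its surroundings in either dye, and the percent of saturated pixels, with no background subtraction or normalisation per the file headers. A table of log2 ratios deposited by the authors has a scale and centring not given in the sources used here; 20 of its 27 columns could be tied to spots and served as an alternative, and 7 were not used. The files were read in Python 3.11.15 (numpy 2.4.6, pandas 2.3.3), and the rest was done with R 4.3.3 and limma 3.58.1. Spots that were controls or flagged at -75 or lower were dropped, the background was corrected by normexp (offset 50), loess was run within arrays, and replicate spots were averaged. Probes had to exceed background by 2 of its SDs, in either dye, on 2 of a compound's 3 arrays, and the brightest probe stood for its gene. SCD and DGAT2 had another brightest probe on the IND platform. The number of arrays limits the precision.

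The model had 1 mean per compound, with 24 arrays in one fit and IND alone. Tests were 2-sided, adjusted by Benjamini and Hochberg over all genes, and called at an adjusted p under 0.05 and 1.5-fold. The model was tested on simulated data. Every member is named, with array values for the members of each role called in the most compounds, and of the other pathway genes the 10 called in the most compounds. Alternatives were plain background subtraction, median centring, quantile scaling, no filter, the mean of probes, a replicate block, array weights, the log2 ratios of the authors, separate fits, adjusted p alone and leaving out each array. Members, lists and tests were chosen with earlier results of these data known. Residuals of arrays with the same number in different compounds did not correlate (mean 0.00324 in 84 pairs, against -0.00133 in 168 pairs of other numbers), so arrays were not paired. Promoters are those of RefSeq on GRCh38.p14, and figures were drawn with matplotlib 3.10.9.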

Additional observations from a re-analysis of the deposited data

How the results depend on the processing

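Of 3240 recomputed values of 234 calls of single members, 3084 kept direction and call, 155 lost the call and 1 reversed. The reversal was ACACA in BF minus CHR, 0.27 with the mean of its 2 probes against -1.11. The 3240 include 234 values each under quantile scaling between arrays, without the filter on dim probes and at adjusted p alone. Quantile scaling changed the intensities but not the log2 ratios, and adjusted p alone only dropped the fold threshold, so neither could lose a call. All 49 member probes had passed the filter, so dropping it left their ratios unchanged. That quantile scaling and no filter moved none of 34 counts of members by over 1.5 times is thus no test of those counts. Numbers of arrays did not pair them, and with a replicate block 32 of 32 counts also stayed within 1.5 times, among them 24 members that fell with BF. Under median centring the members that rose numbered 8 with BaP (5 as reported, with reported counts in brackets from here on), 4 with DBA (1), 2 with NP (6), 5 with CHR (2) and 4 with BA (2), and those that fell 5 with DBA (11), 7 with NP (4) and 3 with BA (7). In the same setting 16 other pathway genes rose with BaP (10), 7 with DBA (3), 5 with NP (9), 8 with CHR (5), 4 with BA (0) and 12 with BF (5), and 2 fell with DBA (7). Of all 17419 genes, median centring called 3578 higher and 1341 lower with BaP, 1619 and 657 with DBA and 618 and 3021 with NP. With CHR it called 2550 and 2006, with BA 1054 and 1224 and with BF 4288 and 3242. Differences then numbered 3 higher in BaP minus PH (1), 4 lower in BaP minus BF (1), 10 lower in CHR minus BA (6), 0 lower in DBA minus 3MC (2), 3 higher and 1 lower in DBA minus NP (0 and 9) and 4 higher in 3MC minus NP (1). With the mean of all probes 5 members fell with DBA (11) and 1 rose with CHR (2), and 0 were higher in CHR minus BA (2), 0 lower in DBA minus 3MC (2), 4 lower in DBA minus NP (9) and 0 higher in 3MC minus NP (1). With array weights 12 fell with BA (7), 2 were lower in BaP minus BF (1) and 2 higher in 3MC minus NP (1). With the authors' values 0 rose with BA (2), 3 were lower in BaP minus BF (1), 1 higher in CHR minus BA (2) and 0 higher in 3MC minus NP (1). With the compound fitted alone 0 rose and 0 fell with BA (2 and 7), with the pair fitted alone 2 were lower in BaP minus BF and 2 higher in 3MC minus NP (1 each), and with plain background subtraction 2 were lower in BaP minus BF (1). At adjusted p alone, with no fold threshold, 10 rose and 19 fell with BaP, 6 rose with DBA, 11 rose and 11 fell with 3MC, 17 rose and 8 fell with NP, 6 rose with CHR, 11 rose and 15 fell with PH, 6 rose and 22 fell with BA, 5 rose with BF and 8 rose with IND. Of the differences at adjusted p alone, 4 were higher in BaP minus PH, 3 lower in BaP minus BF, 4 higher and 15 lower in CHR minus BA, 9 lower in DBA minus 3MC, 3 higher and 15 lower in DBA minus NP, and 5 higher and 9 lower in 3MC minus NP. Among the alternatives, calls over all genes were counted only for compounds against DMSO under median centring and for BA without its array 1. The other counts, those at adjusted p alone among them, have no share of all genes beside them and cannot be read as particular to the pathway. Leaving out 1 array at a time gave 4 to 13 members that fell with BA and 1 to 3 that rose (4 and 1 without array 3, 13 without array 1), 1 to 3 that rose with 3MC (1 without array 2), 1 to 2 lower in DBA minus 3MC and 0 to 1 higher in 3MC minus NP, the last 2 ranges moving with 5 of the 6 arrays concerned. In the last 2 ranges the call lost was that of FADS2, whose shared spread includes array 1 of BA. The cause of these shifts was not tested. Arrays of DBA, 3MC and NP were the dimmest, which limits small ratios there.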
